A study of Homo sapiens with 24 samples.

Results

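The solute carrier (SLC) genes encode membrane transporters that move amino acids, sugars, nucleotides, vitamins, metals, inorganic ions, bile acids and drugs across the plasma membrane and across the membranes of organelles. The mRNAs described here were chosen by a name and a level: protein-coding genes whose symbol is SLC, a family number, a letter and a member number, with a mean of at least 5 CPM, each gene's reads scaled to a common total of gene reads, over both siControl libraries at 0 h. Of 369 such genes in the annotation, 336 had at least 1 read and 184 passed that level, out of 58721 gene rows in the deposited files. The level in siControl at 0 h therefore selected the members and is given only as a description.

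RNA was measured in HepG2, an established hepatocellular carcinoma cell line, 24 libraries in all. Cells received a non-targeting siRNA (siControl) or an siRNA that lowers IGF2BP1 (siIGF2BP1), IGF2BP2 (siIGF2BP2) or IGF2BP3 (siIGF2BP3), and each of these 4 conditions was collected after 0, 3 and 6 h of actinomycin D, an inhibitor of transcription, with 2 replicates per group. The study asked whether these related RNA-binding proteins change the stability of transcripts, so the comparisons are the level of each mRNA before the drug, its loss after the drug, and the difference in loss between each knockdown and siControl. ERCC synthetic RNA, added to purified RNA in proportion to its amount, set the scale for loss. All libraries of a condition came from knockdowns with 1 siRNA reagent in 1 cell line, and the study calls its replicates independent, but neither it nor the labels say that they were separate cultures, so the p-values measure the spread between these libraries, which may be technical. In bulk RNA, fewer cells of a kind and less RNA per cell cannot be told apart.

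Each library held 31843504 to 74252494 gene reads and 50889 to 119088 ERCC reads. Upon the knockdowns, averaged over time, IGF2BP1 was left at 17.7% of siControl in siIGF2BP1, IGF2BP2 at 23% in siIGF2BP2 and IGF2BP3 at 29% in siIGF2BP3. The 11 hepatocyte markers were all present, with a summed level of 68301 to 101589 CPM, whereas 5 of 6 fibroblast markers stayed under 1 CPM in every library, with sums of 5.01 to 13.2 CPM, and the 4 endothelial markers summed to 0.934 to 2.70 CPM. The summed leukocyte markers reached 774 to 1917 CPM, nearly all of it LYZ, and 3 of 5 stayed under 1 CPM. The part of RNA from other cells in any result was not tested.

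In liver, solute carriers are known for taking up glucose, amino acids, fatty acids, bile acids and drugs from blood. Some liver transporters were below the level used here. SLC10A1, the bile acid importer NTCP, was at 0.0376 CPM in siControl at 0 h, and SLC38A4, a neutral amino acid transporter, at 0.351 CPM. Just inside the threshold were SLC44A4 (5.11 CPM), SLC35G1 (5.36 CPM) and SLC25A32 (5.47 CPM), and just outside it were SLC22A18 (4.72 CPM), SLC38A11 (4.46 CPM) and SLC31A2 (4.38 CPM). All 184 members passed the filter on low counts, and the lowest count of any member in any library was 47, for SLC25A29. Together the members took 1.05% of gene reads in siControl at 0 h.

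Short AU-rich words in the 3' untranslated region (3' UTR) are known landing sites for proteins that promote or delay mRNA decay, and the word TATTTAT (as DNA, on the sense strand, overlapping matches counted) was therefore searched in the annotated 3' UTR of each member. At least 1 match was present in 76 members (41.3%) and in 36.4% of the 9739 protein-coding genes at 5 CPM or more with a 3' UTR. A match is a description of letters and not a binding site. The windows below, of 23 bases, are shown for members whose loss or level the results turn on. They are given 5' to 3' on the sense strand in hg38, from a later GENCODE release than the authors counted on, with the word in capitals.
SLC30A1 (chr1:211573143-211573165, minus strand, 3' UTR): cagagaatTATTTATttctttac
SLC30A1 (chr1:211572297-211572319, minus strand, 3' UTR): tataaaaaTATTTATtttaatac
SLC38A2 (chr12:46358787-46358809, minus strand, 3' UTR): tgtaatgtTATTTATagaacaac
SLC38A2 (chr12:46358741-46358763, minus strand, 3' UTR): tttttcaaTATTTATgataatct
SLC25A25 (chr9:128108504-128108526, plus strand, 3' UTR): ttggaaccTATTTATtttgtatt
SLC22A23 (chr6:3272809-3272831, minus strand, 3' UTR): aatgtgtgTATTTATtttggtca
SLC38A1 (chr12:46188614-46188636, minus strand, 3' UTR): ataatgttTATTTATtatacatc
SLC2A1 (chr1:42926277-42926299, minus strand, 3' UTR): atgcaagaTATTTATatatattt
SLC2A3 (chr12:7920930-7920952, minus strand, 3' UTR): ttgagtttTATTTATtttatcct
SLC2A10 (chr20:46734087-46734109, plus strand, 3' UTR): ctctgcagTATTTATaagaagaa

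Among the 6 members lost fastest, described below, SLC30A1, SLC38A2, SLC25A25 and SLC22A23 held 2, 2, 3 and 2 matches, whereas SLC26A1 and SLC35C1 held none. Among the 6 lost slowest, SLC25A6 held 1 match and SLC38A5, SLC25A23, SLC22A31, SLC25A39 and SLC39A4 held none. Across the members the median log2 change over 6 h in siControl was -0.54 in the 108 without a match, -0.67 in the 38 with 1 match and -0.995 in the 38 with 2 or more. Over protein-coding genes at 5 CPM or more the same medians were -0.70, -1.03 and -1.19. Spearman's rho of slope with the number of matches was -0.29 over the 184 members and -0.21 over the 9739 genes, and rho with 3' UTR length was -0.17 and -0.25. The count of matches and the length of the 3' UTR share their base composition and move together (median length 996.5 bases without a match and 3586 with 2 or more), so both are given as descriptions.

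Levels were compared between genes only per kilobase of exon (RPKM, CPM divided by exon length in kilobases). In siControl at 0 h the 10 highest members were SLC25A5 (217 RPKM), the ADP/ATP carrier ANT2, SLC39A14 (127 RPKM), the ZIP14 importer of zinc, iron and manganese, SLC7A5 (92.1 RPKM), the light chain of the large neutral amino acid transporter LAT1, SLC25A1 (76.7 RPKM), the mitochondrial citrate carrier, SLC38A2 (58.2 RPKM), the sodium-coupled neutral amino acid transporter SNAT2, SLC1A5 (54.7 RPKM), the glutamine transporter ASCT2, SLC25A13 (36.7 RPKM), the aspartate/glutamate carrier citrin, SLC25A3 (32.6 RPKM), the mitochondrial phosphate carrier, SLC39A7 (31.2 RPKM), a zinc transporter of the endoplasmic reticulum, and SLC16A1 (30.3 RPKM), the lactate transporter MCT1. SLC25A5, SLC25A1, SLC25A13 and SLC25A3 among them are mitochondrial carriers of family 25. Reads of SLC25A5 can be shared with its paralogs and processed pseudogenes, and how the counting treated them was not stated.

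Under actinomycin D in siControl, most SLC mRNAs fell, but their median fall was smaller than that of all genes. In edgeR's quasi-likelihood test on a slope over time, scaled by ERCC reads, 159 of 184 members fell (86.4%) and 0 rose at an adjusted p under 0.05, where all 13136 genes tested gave 80.3% fallen and 0.251% risen. Of protein-coding genes at 5 CPM or more 84.5% fell. DESeq2 with ERCC size factors also called 159 fallen and 0 risen, and 159 members were under an unadjusted p of 0.05. The median slope, as a log2 change over 6 h, was -0.64 for the members, -0.88 for all genes tested and -0.84 for protein-coding genes at 5 CPM or more. Slopes lay below -2 in 12 members, below -1 in 49 and above -0.25 in 28, and 62 of the 184 were below the median of all genes. The siControl 0 h libraries that chose the members also enter this slope, so it was repeated in libraries that the choice did not use. In the mean of the 3 knockdowns, 153 members fell and 6 rose, against 77.5% and 5.72% of all genes and 80.1% and 5.36% of protein-coding genes at 5 CPM or more, with a median slope of -0.52 against -0.68, and 152 of these falls were shared with siControl. From 3 h to 6 h alone in siControl, 138 members fell, with a member median of -0.35 against -0.42 for all genes. The share of all genes that fell in this window is not given here.

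The direction of these slopes rests on the spike-in scale. With TMM scaling, which sets the bulk of genes to no change, the all-gene median moved by 0.87 on the log2 scale, and 95 members rose against 39 that fell in siControl, with a member median of 0.23. Scaling to library size gave 44 risen and 79 fallen. For the knockdown mean the corresponding splits were 97 and 54 with TMM and 56 and 96 with library size. The member median lay above the all-gene median under all 3 scalings, at -0.64 against -0.88 by ERCC, 0.23 against -0.02 by TMM and -0.09 against -0.34 by library size. The siControl libraries at 0 h held 762 and 666 gene reads per ERCC read, those at 6 h 505 and 471, and the part of this replicate difference in the slopes was not tested.

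From first-order rate constants on ERCC-scaled levels, in place of the attomole values that the authors fitted to the spike-ins, the median half-life of the SLC mRNAs in siControl was 8.92 h, with single-replicate medians of 7.71 and 10.1 h (n = 2). It was 5.88 h over all genes with a value and 6.49 h over protein-coding genes at 5 CPM or more. The quartiles of the members were 5.53 and 15.2 h. In all, 12 members had a half-life under 3 h, 63 had one over 12 h, and 11 did not fall and have none. In siIGF2BP1, siIGF2BP2 and siIGF2BP3 the member medians were 9.98, 9.03 and 10.0 h, against 6.51, 6.21 and 6.61 h over all genes. These medians leave out 21, 11 and 21 members that did not fall, against 11 in siControl, so they rest on unlike sets of members. The differences between the medians are within the spread of the single-replicate medians in siControl, but the sets differ, so no conclusion is drawn from this.

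Sorted by substrate, metal transporters had the smallest median loss and carriers of mitochondria and of organic ions the largest. Classes were assigned by family number alone, so that SLC5A6, a vitamin transporter, counts with the sugars and SLC16A10, a transporter of aromatic amino acids, with the carboxylates. The median siControl slope was -0.45 in the 23 metal transporters, -0.54 in 7 carboxylate transporters, -0.56 in 31 amino acid and peptide transporters, -0.68 in 17 sugar and polyol transporters, -0.69 in 17 vitamin, nucleoside and lipid transporters and in 18 nucleotide sugar transporters, -0.70 in 21 inorganic ion transporters, and -0.75 in 36 mitochondrial carriers and in 14 transporters of organic ions, bile acids and drugs. The median half-life, over members with a value, ranged from 6.15 h in the mitochondrial carriers (32 of 36) to 13.9 h in the metal transporters (21 of 23). Every class median slope lay above the all-gene median of -0.88. The metal class was mixed, however. Its 6 members of family 30 had a median slope of -0.98, below that of all genes, and a median half-life of 5.87 h. Its 10 members of family 39 had -0.33 and 17.6 h. Classes were wide, with the slowest and fastest mitochondrial carriers at 0.26 (SLC25A6) and -3.23 (SLC25A25).

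**Figure D1:**
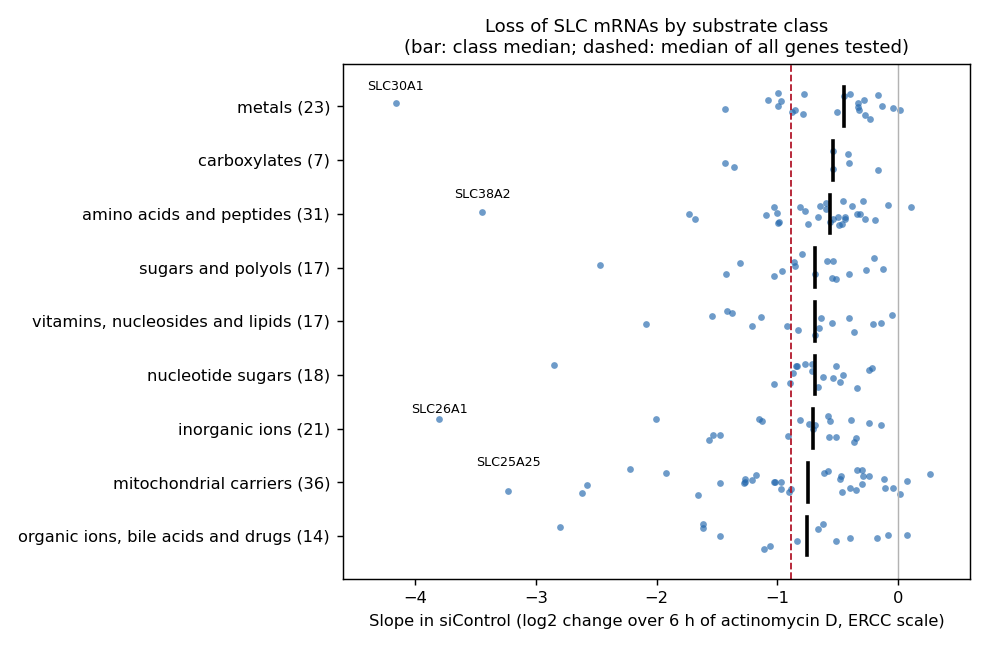
Slope of each of the 184 SLC mRNAs in siControl (x axis, log2 change over 6 h of actinomycin D on the ERCC scale), grouped by substrate class with the number of members in brackets. Points are genes, black bars are class medians and the dashed line is the median of all genes tested (-0.88). All class medians lie right of the dashed line, from -0.75 to -0.45, and SLC30A1, SLC26A1, SLC38A2 and SLC25A25 lie far to the left.

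The mRNA lost fastest was SLC30A1 (chr1:211571568-211579161, minus strand), the plasma membrane zinc exporter ZnT1 whose gene is known to be switched on by zinc. It was at 44.8 and 40.6 CPM in siControl at 0 h, and 15.9% and 17.1% of the 0 h mean was left at 3 h and 5.91% and 5.61% at 6 h. Its slope was -4.16 ± 0.34 (SE) with an adjusted p of 2.06e-10, and its half-life was 1.29 h. In the knockdowns 14% to 20.3% was left at 3 h and 5.67% to 8.88% at 6 h, and the mean knockdown slope was -3.89 ± 0.19 (adjusted p = 1.75e-14). Every drug-treated library was thus far below every 0 h library, in all 4 conditions.

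SLC26A1, a sulfate transporter, went from 38.6 and 41.9 CPM to 26.8% and 27.9% at 3 h and 8.09% and 6.21% at 6 h in siControl, with a slope of -3.80 ± 0.17 (adjusted p = 1.00e-14) and a half-life of 1.59 h. SLC38A2, the transporter SNAT2, whose gene is known to be induced by amino acid shortage, was the most abundant of the short-lived members at 377 and 381 CPM. Of its 0 h level, 15.0% and 15.6% was left at 3 h and 9.37% and 9.23% at 6 h, with a slope of -3.44 ± 0.44 (adjusted p = 2.78e-07) and a half-life of 1.36 h. SLC25A25, a mitochondrial ATP-Mg/phosphate carrier, was at 20.9 and 21.0 CPM, then at 19.3% and 12.3%, then at 12.6% and 9.53%, with a slope of -3.23 ± 0.55 (adjusted p = 1.50e-05) and a half-life of 1.41 h. The knockdown means repeated these falls in the libraries not used in the choice, at -3.57 ± 0.10 for SLC26A1, -3.17 ± 0.25 for SLC38A2 and -3.22 ± 0.32 for SLC25A25.

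SLC35C1, the GDP-fucose transporter of the Golgi, and SLC22A23, a member of the organic ion transporter family with no settled substrate, completed the 6. SLC35C1 was at 28.8 and 32.9 CPM, with 50.2% and 36.3% left at 3 h and 14.6% and 12.9% at 6 h (slope -2.85 ± 0.14, half-life 2.27 h). SLC22A23 was at 56.5 and 59.4 CPM, with 31.1% and 35.5% left at 3 h and 15.7% and 13.2% at 6 h (slope -2.80 ± 0.13, half-life 2.01 h). No pair of the 6 shares a family or a substrate class. All 6 calls in siControl held when any 1 library was left out, and all 6 stayed negative and called with TMM scaling.

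At the other end, 6 mRNAs had slopes above 0 in siControl, none of them called. SLC25A6, the ADP/ATP carrier ANT3, was at 11.8 and 11.8 CPM at 0 h, then at 90.9% and 125%, then at 97.3% and 143% (slope 0.26 ± 0.21, adjusted p = 0.257). Its replicates disagreed, and its gene lies in the pseudoautosomal region, so that reads may be shared with the copy on Y. SLC38A5, the glutamine transporter SNAT5, was at 112% and 110% at 3 h and 113% and 103% at 6 h (slope 0.11 ± 0.10). SLC25A23, another ATP-Mg/phosphate carrier, was at 114% and 112%, then at 112% and 98.4% (slope 0.08 ± 0.09). SLC22A31 was at 121% and 122%, then at 115% and 95.9% (slope 0.07 ± 0.14). SLC25A39, a mitochondrial glutathione carrier, was at 110% and 110%, then at 109% and 93.6% (slope 0.02 ± 0.09), and SLC39A4, the zinc importer ZIP4, at 111% and 109%, then at 110% and 91.6% (slope 0.01 ± 0.11). Neither a rise nor a fall over 6 h was thus shown for these 6, though from 3 h to 6 h alone SLC22A31 fell in siControl (-0.21, adjusted p = 0.0345). Without siControl 0h replicate 2 the slopes of SLC22A31 (-0.09), SLC25A39 (-0.10), SLC39A4 (-0.09), SLC38A5 (-0.03) and SLC25A23 (-0.03) were below 0, and those of SLC25A39 (-0.04) and SLC39A4 (-0.07) also without siControl 6h replicate 1. That of SLC25A6 was 0.0012 without siControl 6h replicate 2. In the knockdown mean, SLC25A6 (0.66 ± 0.12, adjusted p = 3.34e-05), SLC25A23 (0.16 ± 0.05, adjusted p = 0.00673), SLC38A5 (0.17 ± 0.06, adjusted p = 0.0142) and SLC22A31 (0.20 ± 0.08, adjusted p = 0.0275) were higher after the drug on the ERCC scale. The call for SLC38A5 was lost without siIGF2BP3 0h replicate 1 (0.13, adjusted p = 0.0603). That for SLC22A31 was lost without any 1 of 6 libraries, the weakest being the same library (0.17, adjusted p = 0.0835): both siIGF2BP1 0h, both siIGF2BP2 0h, siIGF2BP3 0h replicate 1 and siIGF2BP3 6h replicate 1. From 3 h to 6 h alone, SLC38A5 (-0.010), SLC22A31 (-0.10) and SLC25A23 (0.05) were not called in the knockdown mean.

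**Figure D2:**
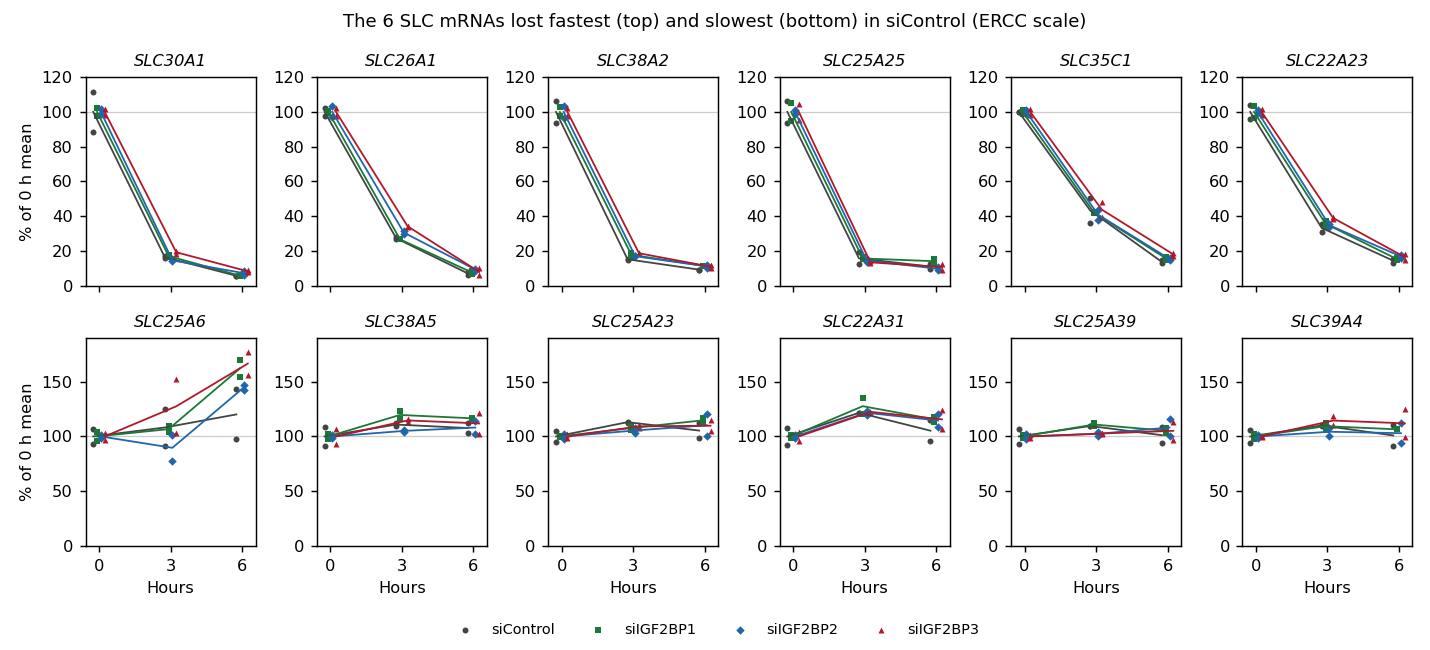
Level of the 6 SLC mRNAs lost fastest (top row) and slowest (bottom row) in siControl, as a percentage of each condition's 0 h mean on the ERCC scale (y axis), against hours of actinomycin D (x axis). Points are single libraries, lines join the means of 2 replicates and colors mark the 4 conditions. The top row falls under 20% by 6 h in every condition, for SLC30A1 to 5.61% to 8.88%, whereas the bottom row stays at 91.6% or above at 6 h.

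Other known transporters lay between. SLC38A1, the system A transporter SNAT1 next to SLC38A2 on chromosome 12, had 31.3% and 31.1% left at 6 h in siControl and a half-life of 3.76 h. The phosphate transporters SLC20A2 and SLC20A1 had 24.2% and 25.6%, and 35.8% and 31.7%, left at 6 h, with half-lives of 3.18 and 3.73 h. The cationic amino acid transporter SLC7A1 and the cystine transporter SLC7A11 had half-lives of 5.43 and 5.65 h, the glucose transporter SLC2A1 (GLUT1) 6.93 h and SLC2A2 (GLUT2) 12.5 h. SLC3A2, the heavy chain that pairs with SLC7A5 and SLC7A11, had a half-life of 6.91 h against 12.3 h for SLC7A5. The sodium-dependent citrate transporter SLC13A5 had 16.7 h, the folate carrier SLC19A1 7.58 h, the ferrous iron transporter SLC11A2 14 h and the iron exporter SLC40A1 14 h. The subunits of the bile acid exporter OST had 6.85 h (SLC51A) and 4.41 h (SLC51B). The glucose-6-phosphate transporter SLC37A4 (33.2 h), the bile acid CoA ligase SLC27A5 (28.2 h) and SLC39A14 (21.2 h) were long-lived, and a half-life of this length is extrapolated far beyond the 6 h measured.

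Loss was not always even over the 6 h. In a test of the first 3 h against the last 3 h over the 4 conditions on the ERCC scale, 30 members were lost faster early and 6 faster late, where all genes gave 25.5% and 4.38%. The members' shares, 16.3% early and 3.26% late, lie below both. The largest early excess was in SLC25A25, where log2 loss in the first 3 h exceeded that in the last 3 h by 2.36 ± 0.13 (adjusted p = 6.38e-67), followed by SLC38A2 (1.86 ± 0.08, adjusted p = 1.40e-127), SLC30A1 (1.25 ± 0.11, adjusted p = 4.43e-28), SLC25A28 (0.72 ± 0.14), a mitochondrial iron importer, and SLC2A4 (0.65 ± 0.15), the insulin-responsive glucose transporter GLUT4. The smallest of these p-values rest on a spread that edgeR shares over genes and groups, and not on 2 libraries per group alone. Their size is therefore not a measure of replication. SLC25A25 shows the shape plainly: in siIGF2BP1 16.4% and 15.1% was left at 3 h and still 15.5% and 12.8% at 6 h. For these members a single half-life averages 2 rates.

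The difference was most negative in SLC22A31 (-0.43 ± 0.08, adjusted p = 2.53e-07), SLC25A12 (-0.41 ± 0.13), an aspartate/glutamate carrier, SLC51B (-0.40 ± 0.13), SLC39A5 (-0.31 ± 0.08), a zinc transporter, and SLC12A9 (-0.28 ± 0.11), a member of the cation-chloride family. A rise before 3 h also makes this difference negative. SLC22A31 stood above its 0 h mean at 3 h in siControl, so its value is not a measure of late loss alone. SLC25A12 went to 54.7% and 49.9% at 3 h and to 14.9% and 18.2% at 6 h in siControl. The call for SLC25A12 (adjusted p = 0.00770) was lost without siIGF2BP1 3h replicate 1 or siIGF2BP3 3h replicate 2 (-0.33, adjusted p = 0.0566 for the latter), that for SLC51B (adjusted p = 0.0134) without siIGF2BP2 3h replicate 1 (-0.31, adjusted p = 0.116), and that for SLC12A9 (adjusted p = 0.0380) without any 1 of 12 libraries (weakest -0.20, adjusted p = 0.245, without siIGF2BP2 3h replicate 2). With TMM scaling the split turned to 20 early and 66 late, and with library size to 28 early and 45 late, so the balance of directions rests on the ERCC scale.

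**Figure D3:**
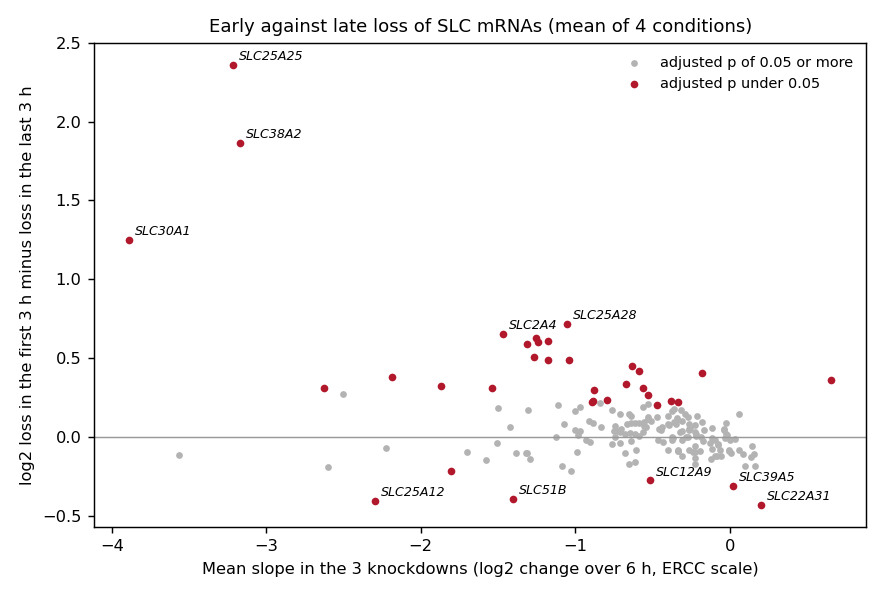
Difference between log2 loss in the first 3 h and in the last 3 h, averaged over 4 conditions (y axis, positive where more was lost early), against the mean slope in the 3 knockdowns (x axis, log2 change over 6 h, ERCC scale), for 184 SLC mRNAs. Red points passed the test (30 above and 6 below 0). SLC25A25 (2.36), SLC38A2 (1.86) and SLC30A1 (1.25) stand above all others.

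Before actinomycin D, the 3 knockdowns changed many SLC mRNAs by small amounts. In siIGF2BP1 31 members were higher and 17 lower than in siControl, in siIGF2BP2 22 and 24, and in siIGF2BP3 10 and 17. Over all genes tested, 9.43% were higher and 6.5% lower in siIGF2BP1, 6.65% and 5.47% in siIGF2BP2, and 4.93% and 4.47% in siIGF2BP3. As shares of the members, 26.1%, 25% and 14.7% were called, and 20.2%, 15.5% and 12% of the protein-coding genes at 5 CPM or more, which is the nearer background since the filter on level is the same. Member medians were 0.01, 0.02 and -0.01 on the log2 scale, where TMM centers the bulk of genes near 0, and -0.02, 0.10 and 0.08 on the ERCC scale. A change of at least 0.5 was reached by 9, 5 and 2 called members, and of at least 1 by none. The shares of all genes at these sizes are not given here. In all 76 members were called in at least 1 of the 3 comparisons, 44 in 1, 19 in 2 and 13 in all 3. The comparisons share the siControl libraries, and the same overlap over all genes is not given here. Whether these counts are particular to the members was therefore not tested.

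These calls depend on scale and on single libraries. On the ERCC scale 8 members were higher and 12 lower in siIGF2BP1, 14 and 9 in siIGF2BP2, and 6 and 3 in siIGF2BP3, where the all-gene medians were -0.02, 0.10 and 0.09. Without 1 library the numbers called were 32 to 50, 26 to 50 and 11 to 30, lowest without siControl 0h replicate 2, siIGF2BP2 0h replicate 1 and siControl 0h replicate 1 respectively. Of the 80 calls at 0 h on members named here, 41 held without any 1 library and 39 did not, and 43 held on the ERCC scale with none reversed.

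The siControl libraries at 0 h also chose the members, so the comparison was repeated at 3 h and 6 h averaged, in libraries that the choice did not use. The study split each transfected plate over the time points, so these libraries can share transfections with those at 0 h. A sign or call seen again later is therefore not an independent repeat of the knockdown. There 39 members were higher and 46 lower in siIGF2BP1, 30 and 53 in siIGF2BP2, and 22 and 50 in siIGF2BP3, against 18.3% and 16.6%, 13.4% and 15.7%, and 14% and 14.8% of all genes. In either direction 46.2%, 45.1% and 39.1% of members were called, and 42.3%, 35.7% and 35.6% of protein-coding genes at 5 CPM or more. All 48, 46 and 27 members called at 0 h kept their sign, and 44, 41 and 23 of them were called again. The same counts over all genes are not given here, so these describe the members only. On the ERCC scale the later splits became 55 and 14, 81 and 20, and 93 and 6, as the medians of all genes moved to 0.10, 0.17 and 0.23. Which members stood high or low relative to other genes is therefore what these comparisons give, rather than the number higher and lower.

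Calls in the glucose transporters of family 2 went both ways, with SLC2A1, SLC2A3 and SLC2A10 lower in all 3 knockdowns. Of the 10 members of family 2, 2 were higher and 3 lower in siIGF2BP1, 1 and 4 in siIGF2BP2, and 0 and 3 in siIGF2BP3. Over all genes tested, 9.43% were higher and 6.5% lower in siIGF2BP1, 6.65% and 5.47% in siIGF2BP2, and 4.93% and 4.47% in siIGF2BP3. SLC2A1 (GLUT1, the ubiquitous glucose importer) was at 206 and 191 CPM in siControl, at 115 and 126 CPM in siIGF2BP1, at 163 and 167 CPM in siIGF2BP2 and at 166 and 155 CPM in siIGF2BP3. Every knockdown library was below both siControl libraries. Its log2 change was -0.70 ± 0.05 (adjusted p = 1.48e-12) in siIGF2BP1, -0.26 ± 0.05 (adjusted p = 0.000570) in siIGF2BP2 and -0.30 ± 0.05 (adjusted p = 0.000134) in siIGF2BP3. The call in siIGF2BP2 was lost without siControl 0h replicate 1 (-0.20, adjusted p = 0.0516), and those in siIGF2BP2 and siIGF2BP3 were lost on the ERCC scale (-0.18 and -0.22). At 3 h and 6 h averaged SLC2A1 was lower in all 3 (-0.85 ± 0.04, -0.20 ± 0.04 and -0.21 ± 0.04).

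SLC2A3 (GLUT3, a high-affinity glucose importer) fell from 81.6 and 73.5 CPM to 41.4 and 46.5 CPM in siIGF2BP1, 58.6 and 58.2 CPM in siIGF2BP2 and 56.4 and 54.8 CPM in siIGF2BP3. The changes were -0.81 ± 0.06 (adjusted p = 4.01e-13), -0.40 ± 0.06 (adjusted p = 2.55e-06) and -0.47 ± 0.06 (adjusted p = 2.75e-07), with no overlap between the groups, and all 3 held on the ERCC scale and without any 1 library. Its sequence is nearly identical to that of SLC2A14, so reads may be shared. SLC2A10 (GLUT10) went from 20.3 and 21.5 CPM to 13.9 and 14.2 CPM, 15.5 and 16.7 CPM, and 16.1 and 18 CPM, a change of -0.56 ± 0.09 (adjusted p = 1.29e-05) in siIGF2BP1. The smaller changes of SLC2A10 in siIGF2BP2 (-0.37, adjusted p = 0.00326) and siIGF2BP3 (-0.29, adjusted p = 0.0298) were lost on the ERCC scale. They were also lost without siControl 0h replicate 2 or siIGF2BP2 0h replicate 1 in siIGF2BP2 (weakest -0.32, adjusted p = 0.0853), and without either siControl library or siIGF2BP3 0h replicate 1 in siIGF2BP3 (weakest -0.20, adjusted p = 0.376). SLC2A2 (GLUT2), the liver form, was at 52.1 and 51 CPM in siControl and at 61.3 and 56.2 CPM in siIGF2BP1 (0.21 ± 0.05, adjusted p = 0.00493), a call lost without siControl 0h replicate 2 or siIGF2BP1 0h replicate 1 (weakest 0.15, adjusted p = 0.193) and on the ERCC scale.

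Beside SLC2A1, SLC2A3 and SLC2A10, 5 further members were lower in all 3 knockdowns. SLC13A3, the sodium-dependent dicarboxylate transporter, was at 47.8 and 43.6 CPM in siControl, 36.9 and 38.1 CPM in siIGF2BP1, 28.8 and 28.5 CPM in siIGF2BP2 and 32.4 and 34 CPM in siIGF2BP3. Its changes of -0.27 ± 0.05 (adjusted p = 0.000444), -0.67 ± 0.06 (adjusted p = 1.06e-11) and -0.46 ± 0.06 (adjusted p = 2.14e-07) held without any 1 library and on the ERCC scale. SLC13A5, the citrate importer of hepatocytes, was at 264 and 253 CPM in siControl and at 217 and 217, 208 and 206, and 233 and 237 CPM in the knockdowns, all 6 libraries below both controls (-0.23, -0.31 and -0.13). The call for SLC13A5 in siIGF2BP3 (adjusted p = 0.00456) was lost without siControl 0h replicate 1 (-0.10, adjusted p = 0.161) or siIGF2BP3 0h replicate 1, and those in siIGF2BP2 and siIGF2BP3 on the ERCC scale.

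SLC7A2, a cationic amino acid transporter, was at 147 and 139 CPM in siControl and between 116 and 126 CPM in all 6 knockdown libraries, with changes of -0.27, -0.21 and -0.25 (adjusted p = 1.77e-05, 0.000793 and 0.000101). The middle call was lost without siControl 0h replicate 1 (-0.16, adjusted p = 0.0610), and those in siIGF2BP2 and siIGF2BP3 on the ERCC scale. SLC20A1, a phosphate transporter, was at 136 and 133 CPM in siControl and between 103 and 124 CPM in the knockdowns, with changes of -0.23, -0.34 and -0.17 (adjusted p = 0.000552, 1.83e-06 and 0.0192). The last was lost without either siControl library or siIGF2BP3 0h replicate 1 (weakest -0.10, adjusted p = 0.420) and on the ERCC scale. SLC12A2, the sodium-potassium-chloride cotransporter NKCC1, was at 28.9 and 27.2 CPM in siControl and between 23.5 and 25 CPM in the knockdowns (-0.19, -0.21 and -0.24, with adjusted p = 0.0432, 0.0258 and 0.0141). All 3 calls for SLC12A2 were lost on the ERCC scale and without siControl 0h replicate 1 (-0.14, -0.17 and -0.19, with adjusted p = 0.323, 0.268 and 0.198). Each was also lost without either 0h library of its own knockdown, and the first without either siIGF2BP2 3h library. At 3 h and 6 h averaged, however, SLC12A2 was lower in all 3 (-0.22, -0.26 and -0.29).

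On the other side, 3 members were higher in all 3 knockdowns. SLC29A4, the plasma membrane monoamine transporter, was at 32.3 and 33 CPM in siControl, 42.4 and 49.99 CPM in siIGF2BP1, 41.6 and 40.7 CPM in siIGF2BP2 and 41 and 36.7 CPM in siIGF2BP3, all above both controls. Its changes were 0.51 ± 0.07 (adjusted p = 1.35e-06), 0.34 ± 0.07 (adjusted p = 0.000861) and 0.26 ± 0.07 (adjusted p = 0.0185), and all 3 held on the ERCC scale. The last was lost without either siControl library or siIGF2BP3 0h replicate 1 (weakest 0.18, adjusted p = 0.312). SLC30A9, a mitochondrial zinc transporter, was at 78.2 and 82.9 CPM in siControl and between 93.0 and 98.5 CPM in the knockdowns, with changes of 0.31, 0.24 and 0.23 (adjusted p = 1.04e-06, 9.24e-05 and 0.000213) that held without any 1 library and on the ERCC scale. SLC38A5 was at 40.8 and 39 CPM in siControl and between 43.9 and 48.1 CPM in the knockdowns (0.19, 0.18 and 0.21, with adjusted p = 0.0109, 0.0178 and 0.00824). All 3 calls for SLC38A5 were lost on the ERCC scale, and each was lost without at least 2 libraries (weakest 0.15, 0.13 and 0.14, with adjusted p = 0.163, 0.273 and 0.234): siControl 0h replicate 2 in all 3, siIGF2BP1 0h replicate 1, both siIGF2BP2 0h libraries, and siIGF2BP3 0h replicate 2.

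**Figure D4:**
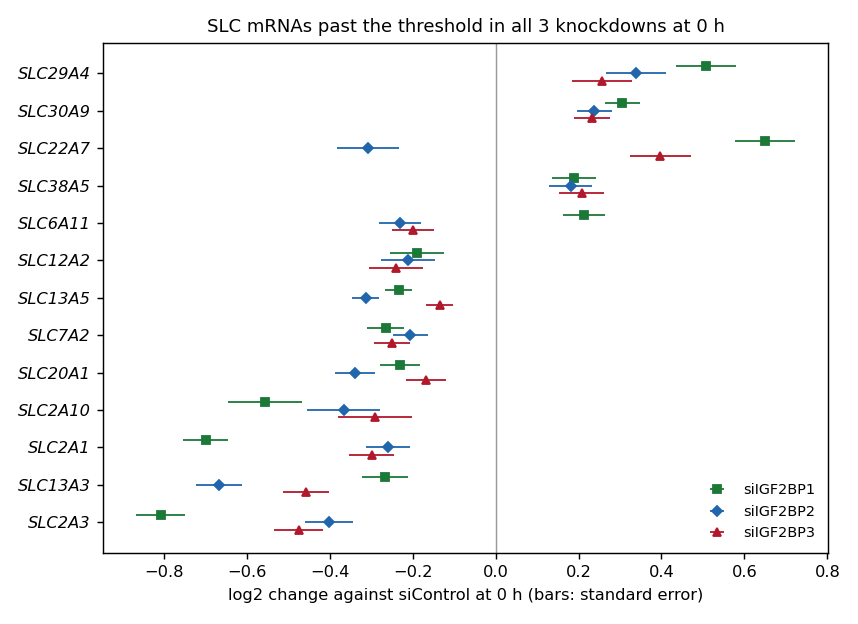
Log2 change against siControl at 0 h (x axis, TMM scale, bars are standard errors) of the 13 SLC mRNAs called in all 3 knockdowns, with colors for the knockdowns. SLC2A3 (-0.81, -0.40 and -0.47) and 7 others lie left of 0 in every knockdown, SLC29A4, SLC30A9 and SLC38A5 right of 0, and SLC22A7 and SLC6A11 on both sides. On the ERCC scale SLC2A3, SLC13A3, SLC29A4 and SLC30A9 kept all 3 calls, SLC20A1 and SLC22A7 kept 2, SLC2A1, SLC2A10, SLC7A2 and SLC13A5 kept the 1 in siIGF2BP1, and SLC12A2, SLC38A5 and SLC6A11 kept none.

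The largest rise in siIGF2BP1 was in SLC30A10, followed by SLC29A3 and SLC22A7. SLC30A10, a manganese exporter of liver, was at 34.1 and 29.6 CPM in siControl and at 49.6 and 55.6 CPM in siIGF2BP1 (0.74 ± 0.07, adjusted p = 4.47e-10). SLC29A3, a lysosomal nucleoside transporter, was at 16.5 and 20.9 CPM in siControl, at 30.9 and 30.5 CPM in siIGF2BP1 (0.73 ± 0.09, adjusted p = 8.97e-08) and at 27.1 and 25.4 CPM in siIGF2BP2 (0.49 ± 0.09, adjusted p = 0.000125). SLC22A7, the organic anion transporter OAT2, was at 24 and 23.1 CPM in siControl and at 36.7 and 36.1 CPM in siIGF2BP1 (0.65 ± 0.07, adjusted p = 8.97e-09). SLC25A25 was at 20.9 and 21.0 CPM in siControl and at 29.3 and 26.6 CPM in siIGF2BP1 (0.44 ± 0.12, adjusted p = 0.00808). The rule that named these rises required that the groups not overlap, so the lack of overlap is no further support for them. SLC25A25 alone among them lost its call without 1 library, either siControl library or siIGF2BP1 0h replicate 1 (weakest 0.37, adjusted p = 0.137), and was called again at 3 h and 6 h averaged (0.48, adjusted p = 0.000908). SLC30A10, SLC29A3 and SLC22A7 were also higher in siIGF2BP1 at 3 h and 6 h averaged, by 0.60, 0.72 and 0.48.

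The largest falls in siIGF2BP1 beside the glucose transporters were in SLC19A3 and SLC6A14. SLC19A3, a thiamine transporter, was at 9.0 and 9.31 CPM in siControl and at 4.45 and 6.02 CPM in siIGF2BP1 (-0.82 ± 0.13, adjusted p = 8.87e-06), and at 11 and 11 CPM in siIGF2BP2 and 8.55 and 9.36 CPM in siIGF2BP3. SLC6A14, a transporter of neutral and cationic amino acids, was at 95.2 and 96.6 CPM in siControl and at 54.2 and 59.3 CPM in siIGF2BP1 (-0.74 ± 0.06, adjusted p = 6.48e-13). In siIGF2BP2 and siIGF2BP3 SLC6A14 was at 85.1 to 101 CPM, a change of 0.05 ± 0.05 in siIGF2BP2 and of -0.10 ± 0.05 in siIGF2BP3, neither called. Both genes were lower in siIGF2BP1 at 3 h and 6 h averaged (-0.74 and -0.80).

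In siIGF2BP2 the falls were led by SLC51A, the alpha subunit of the bile acid exporter OST. It was at 8.60 and 5.82 CPM in siControl, 3.83 and 3.78 CPM in siIGF2BP2 and 3.74 and 3.96 CPM in siIGF2BP3, and the changes were -0.91 ± 0.17 (adjusted p = 0.000200) and -0.90 ± 0.17 (adjusted p = 0.000432). The siControl replicates differed widely, and without siControl 0h replicate 1 both calls were lost (-0.60, adjusted p = 0.0531, and -0.59, adjusted p = 0.0790). At 3 h and 6 h averaged SLC51A was lower in both (-0.48, adjusted p = 0.00239, and -0.73, adjusted p = 3.26e-05). Its partner SLC51B was at 10.2 and 9.76 CPM in siControl and at 8.94 to 11.1 CPM in the knockdowns, with no call.

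SLC27A2, a fatty acid transport protein and very long-chain acyl-CoA synthetase, was at 28.2 and 27.3 CPM in siControl and at 16.3 and 19.3 CPM in siIGF2BP2 (-0.64 ± 0.08, adjusted p = 8.52e-08). It was at 26.1 to 27.8 CPM in siIGF2BP1 and siIGF2BP3. SLC39A11, a zinc importer, was at 11.8 and 11.8 CPM in siControl and at 8.29 and 7.84 CPM in siIGF2BP2 (-0.54 ± 0.11, adjusted p = 0.000387), and SLC6A4, the serotonin transporter, at 12.1 and 11.8 CPM and at 8.68 and 8.30 CPM (-0.48 ± 0.10, adjusted p = 0.000557). All 3 held without any 1 library, on the ERCC scale and at 3 h and 6 h averaged (-0.74, -0.70 and -0.52). The rises in siIGF2BP2 were in SLC16A10 (10.9 and 11.7 CPM in siControl, 16.2 and 15.8 CPM in siIGF2BP2, 0.51 ± 0.09, adjusted p = 9.51e-05), SLC16A6, a monocarboxylate transporter (10.4 and 9.44 CPM, 13.8 and 13.8 CPM, 0.48 ± 0.15, adjusted p = 0.0231), and SLC40A1, the iron exporter ferroportin (11.4 and 9.41 CPM, 14.5 and 13.5 CPM, 0.44 ± 0.11, adjusted p = 0.00425). The call for SLC16A6 was lost without any 1 of the 4 libraries compared (weakest 0.40, adjusted p = 0.238, without siControl 0h replicate 2) but was made again at 3 h and 6 h averaged (0.73, adjusted p = 2.37e-06). That for SLC40A1 was lost without siControl 0h replicate 2 (0.30, adjusted p = 0.197) or siIGF2BP2 0h replicate 1, and was not made at 3 h and 6 h averaged (0.13, adjusted p = 0.254).

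In siIGF2BP3 changes were fewer. SLC43A2, a neutral amino acid transporter, was at 9.42 and 9.86 CPM in siControl and at 6.76 and 6.79 CPM in siIGF2BP3 (-0.50 ± 0.11, adjusted p = 0.00125), and at 8.74 to 9.56 CPM in the other knockdowns. Its call was lost on the ERCC scale (-0.42, adjusted p = 0.0899) and was made again at 3 h and 6 h averaged (-0.50, adjusted p = 3.24e-06). SLC50A1, a sugar transporter, was at 22.2 and 21.7 CPM in siControl and at 18.7 and 14.4 CPM in siIGF2BP3 (-0.39 ± 0.09, adjusted p = 0.00230). Without siIGF2BP3 0h replicate 2 its call was lost (-0.23), as it was on the ERCC scale. At 3 h and 6 h averaged SLC50A1 was lower by more than at 0 h (-0.58, adjusted p = 2.41e-09). SLC22A7 (0.40 ± 0.07, adjusted p = 0.000189), SLC30A10 (0.30 ± 0.07, adjusted p = 0.00494), SLC39A4 (0.27 ± 0.06, adjusted p = 0.000827) and SLC35F2 (0.25 ± 0.08, adjusted p = 0.0306) were higher. The call for SLC30A10 was lost without siControl 0h replicate 2 (0.20, adjusted p = 0.198) or siIGF2BP3 0h replicate 2, and that for SLC35F2 without any 1 of the 4 libraries compared (weakest 0.21, adjusted p = 0.250) and on the ERCC scale.

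**Figure D5:**
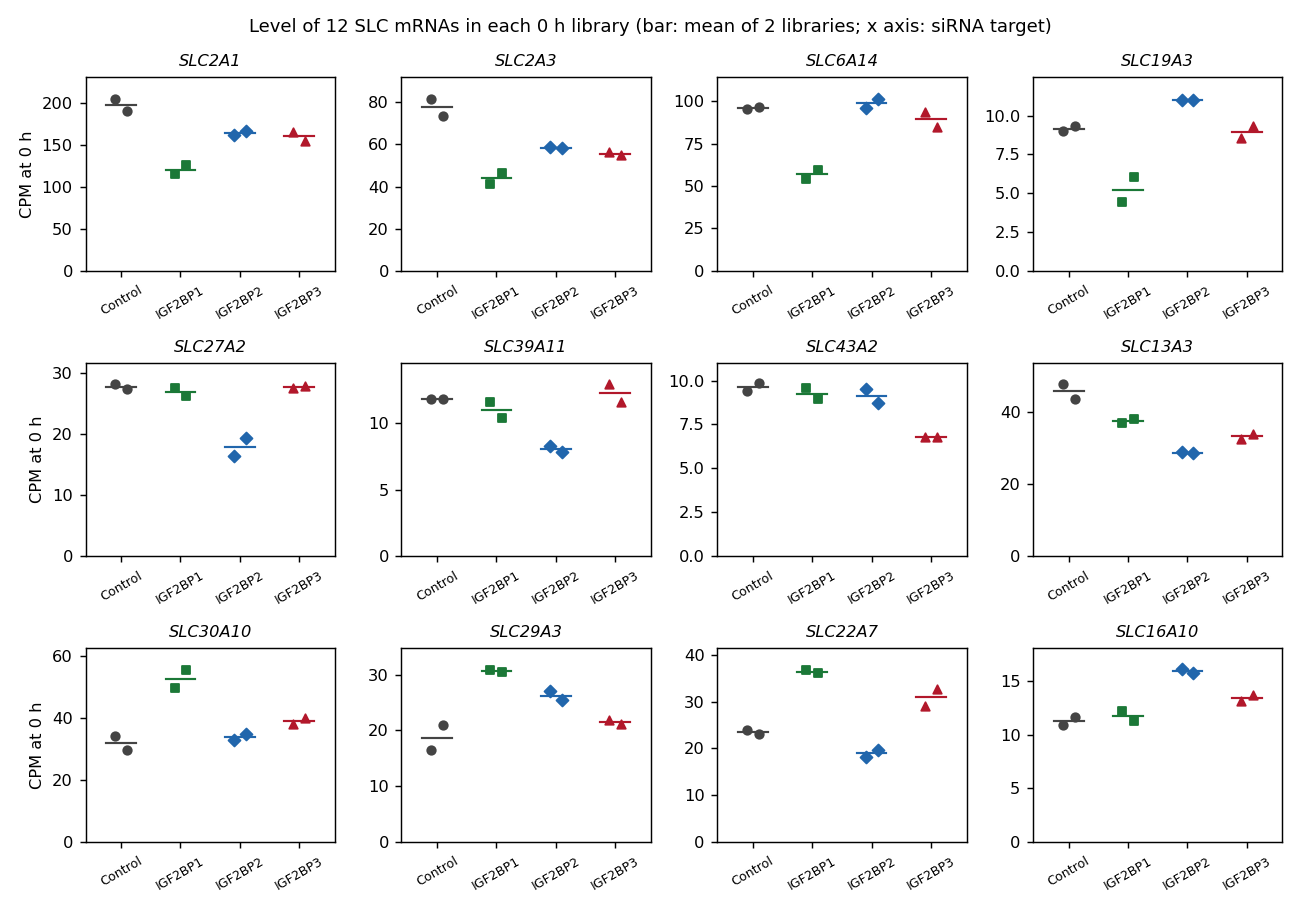
Level at 0 h (y axis, CPM) of 12 SLC mRNAs in siControl and the 3 knockdowns (x axis). Points are single libraries and bars the mean of 2 replicates. SLC2A1 and SLC2A3 are lower in every knockdown, SLC6A14 and SLC19A3 lower in siIGF2BP1, SLC27A2 and SLC39A11 in siIGF2BP2 and SLC43A2 in siIGF2BP3, while SLC30A10 and SLC29A3 reach 49.6 to 55.6 and 30.5 to 30.9 CPM in siIGF2BP1.

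Amino acid and zinc transporters moved as mixed groups. Of the 31 amino acid and peptide transporters, 7 were higher and 3 lower in siIGF2BP1, 9 and 6 in siIGF2BP2, and 1 and 5 in siIGF2BP3. Over all genes 15.9%, 12.1% and 9.39% were called in either direction. SLC7A5 was at 443 and 435 CPM in siControl, 509 and 509 CPM in siIGF2BP1 and 493 and 470 CPM in siIGF2BP2 (0.23, adjusted p = 3.03e-06, and 0.14, adjusted p = 0.00377), and its partner SLC3A2 was at 166 and 164 CPM, 193 and 186 CPM, and 195 and 189 CPM (0.22 and 0.23, adjusted p = 1.41e-05 and 9.42e-06). In siIGF2BP3 neither was called (0.01 and 0.06). SLC7A11 was also higher in both, at 31.2 and 30.8 CPM in siControl, 35.5 and 36.8 CPM in siIGF2BP1 and 39.6 and 35.7 CPM in siIGF2BP2 (0.24, adjusted p = 0.0131, and 0.29, adjusted p = 0.00259). SLC7A1 went the other way, by -0.25 in siIGF2BP1 (adjusted p = 2.32e-05) and -0.12 in siIGF2BP2 (adjusted p = 0.0430). The former held on the ERCC scale (-0.28, adjusted p = 0.0271) and the latter did not (-0.05). The latter was also lost without any 1 of the 4 libraries compared. Of the 6 members of family 7, 2 were higher and 2 lower in siIGF2BP1, 3 and 2 in siIGF2BP2, and 0 and 1 in siIGF2BP3. On the ERCC scale the calls left for SLC7A5, SLC3A2 and SLC7A11 were those of SLC3A2 and SLC7A11 in siIGF2BP2. The calls for SLC7A11 were lost without siIGF2BP1 0h replicate 2 or either siControl library (weakest 0.21, adjusted p = 0.116) and without siIGF2BP2 0h replicate 1 (0.21, adjusted p = 0.160), and that for SLC7A5 in siIGF2BP2 without siControl 0h replicate 2 or siIGF2BP2 0h replicate 1 (weakest 0.10, adjusted p = 0.193).

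Of the 23 metal transporters, 7 were higher and 1 lower in siIGF2BP1, 2 and 4 in siIGF2BP2, and 3 and 1 in siIGF2BP3. The 6 members of family 30, transporters of zinc or manganese, gave 4, 1 and 2 rises and 0 falls at 0 h, and at 3 h and 6 h averaged 2 rises and 0 falls in siIGF2BP1, 1 and 1 in siIGF2BP2, and 4 and 1 in siIGF2BP3. The 10 members of family 39, which move metals into the cytosol, gave 2 rises and 1 fall, 0 and 4, and 1 and 1 at 0 h, and 2 and 6, 0 and 6, and 1 and 5 later. Over all genes 15.9%, 12.1% and 9.39% were called at 0 h and 34.9%, 29.1% and 28.8% later. The most abundant of them, SLC39A14, was at 848 and 903 CPM in siControl, 748 and 817 CPM in siIGF2BP1, 679 and 688 CPM in siIGF2BP2 and 890 and 817 CPM in siIGF2BP3. Its change was -0.35 ± 0.04 in siIGF2BP2 (adjusted p = 1.81e-07) and -0.14 ± 0.04 in siIGF2BP1 (adjusted p = 0.0199), the latter lost without siControl 0h replicate 2 or siIGF2BP1 0h replicate 1 (weakest -0.08, adjusted p = 0.408) and on the ERCC scale. SLC39A10, a zinc importer, was at 36.1 and 34 CPM in siControl and at 25.9 and 28 CPM in siIGF2BP2 (-0.37 ± 0.07, adjusted p = 0.000345), a call lost on the ERCC scale (-0.29, adjusted p = 0.0637).

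Of the 36 mitochondrial carriers, 4 were higher and 2 lower in siIGF2BP1, 2 and 0 in siIGF2BP2, and 1 and 0 in siIGF2BP3 at 0 h, where 15.9%, 12.1% and 9.39% of all genes were called in either direction. SLC25A5 was at 334 and 342 CPM in siControl and between 325 and 363 CPM in all knockdown libraries, SLC25A1 at 153 and 154 CPM and between 152 and 167 CPM, and SLC25A3 at 287 and 292 CPM and between 275 and 300 CPM, none of them called. In the remaining classes the calls were split, with 3 rises and 0 falls of the 14 organic ion, bile acid and drug transporters in siIGF2BP1 against 0 and 3 in siIGF2BP2.

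Differences between knockdowns were tested directly at 0 h. Between siIGF2BP1 and siIGF2BP2 28 members were higher and 25 lower, between siIGF2BP1 and siIGF2BP3 32 and 16, and between siIGF2BP2 and siIGF2BP3 20 and 18, where 18.7%, 14.3% and 9.19% of all genes were called in either direction. Without 1 library these counts ranged from 35 to 61, 27 to 51 and 17 to 40, and on the ERCC scale they were 10 and 27, 5 and 16, and 3 and 7. The lowest were without siIGF2BP1 0h replicate 1 for the first 2 comparisons and without siIGF2BP2 0h replicate 1 for the third. SLC6A14 was lower in siIGF2BP1 than in siIGF2BP2 by a log2 difference of -0.79 ± 0.06 (adjusted p = 7.39e-14), and SLC27A2 was higher in siIGF2BP1 than in siIGF2BP2 by 0.61 ± 0.08 (adjusted p = 1.50e-07). SLC22A7, at 18.2 and 19.7 CPM in siIGF2BP2 and 29.2 and 32.8 CPM in siIGF2BP3, and SLC6A11, a GABA transporter at 104 and 96.6 CPM in siIGF2BP1 and 73.2 to 77.4 CPM in the other knockdowns, moved in opposite directions against siControl.

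The loss itself was not shown to differ between any knockdown and siControl for any SLC mRNA. In edgeR's test of the difference between slopes, 0 members were called in siIGF2BP1, siIGF2BP2 and siIGF2BP3, where 0.0152%, 0% and 0.0228% of all genes were called as lost more slowly. Before adjustment, 12, 11 and 13 of the 184 members had a p under 0.05, against 1436, 896 and 2113 of all 13136 genes, and DESeq2 also called 0 in each. Leaving out 1 library gave 0 in every case but 1, siIGF2BP3 without siControl 0h replicate 2, with 2 members. Slope differences were above 0 in 165, 160 and 170 members, with medians of 0.14, 0.13 and 0.17, below the all-gene medians of 0.19, 0.17 and 0.22, and 61, 67 and 61 members lay above those medians. With TMM scaling the member median in siIGF2BP1 was -0.06, so the sign of the median turned with the scale. In simulated counts with known changes the same test recovered 10% of genes with a slope difference of 0.5 log2 and 57% of those with 1.

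The members with the smallest p, none called, were SLC38A1, SLC17A2, SLC8B1, SLC29A3 and SLC2A10. SLC38A1 had 31.3% and 31.1% left at 6 h in siControl, 41.7% and 40.1% in siIGF2BP1, 36.6% and 41.3% in siIGF2BP2 and 39.8% and 42.1% in siIGF2BP3, so that every knockdown library lay above both siControl libraries. The slope differences were 0.39 ± 0.12 (adjusted p = 0.423), 0.32 ± 0.12 and 0.39 ± 0.12 (adjusted p = 0.277). SLC17A2, of the phosphate transporter family 17, had 48.2% and 47.2% left in siControl, 85.8% and 67.9% in siIGF2BP1, 81.9% and 79.1% in siIGF2BP2 and 69.7% and 70.6% in siIGF2BP3, with differences of 0.69 ± 0.22 (adjusted p = 0.423) and 0.75 ± 0.22 (adjusted p = 0.643) in siIGF2BP1 and siIGF2BP2. SLC8B1, the mitochondrial sodium-calcium exchanger, differed by 0.60 ± 0.19 in siIGF2BP1 (53.3% and 55.9% left at 6 h, against 34.8% and 37.0% in siControl). SLC2A10 differed by 0.39 ± 0.14 in siIGF2BP2 and 0.44 ± 0.14 in siIGF2BP3, and SLC29A3 by 0.57 ± 0.18 in siIGF2BP3. Adjusted values were far above the threshold in each case.

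A list of other transport genes (45 genes outside the SLC names, 36 tested) gave counts for comparison. In siControl 27 of 36 fell and 0 rose, with a median slope of -0.44, where 80.3% of all genes fell and 0.251% rose. At 0 h 6 were higher and 5 lower in siIGF2BP1, 3 and 4 in siIGF2BP2, and 1 and 1 in siIGF2BP3, and at 3 h and 6 h averaged 6 and 10, 4 and 11, and 1 and 4. Over all genes 15.9%, 12.1% and 9.39% were called at 0 h and 34.9%, 29.1% and 28.8% later. No slope difference was called among the 36.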

How the data were processed

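The deposited values were raw read counts per gene, 1 library per column. Per the study's methods, single-end reads of poly(A) RNA were trimmed with Trimmomatic 0.39, aligned to hg38 with HISAT2 2.1.0 and counted by the authors with HTSeq on GENCODE, with 92 ERCC spike-ins. The counting options for strand and shared reads are not given in the sources used here. Summary rows that name no gene (13.6% to 17.1% of reads) were left out.

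Genes at 1 CPM or more in at least 2 libraries were tested (13136) with the quasi-likelihood test of edgeR 4.0.16 in R 4.3.3, with Benjamini-Hochberg adjustment over all of them and a threshold of 0.05. Levels at 0 h, and at 3 h and 6 h averaged, used TMM scaling and 12 group means (residual df 12). Loss used ERCC sums and a slope per condition (residual df 16), and early against late loss used ERCC sums and group means. Half-lives averaged the rate constants from 0 h to 3 h and 0 h to 6 h. CPM was over gene reads. Spike-ins went in per amount of RNA, so the scale does not count cells. Alternatives were DESeq2 1.42.0, other scalings and filters, other time points, a replicate block and leaving out each library. The tests were tried on simulated counts.

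Members and gene lists were chosen with earlier results of these data known. Genes were named by rule: the 6 fastest and 6 slowest in siControl, the 5 largest called rises and falls per knockdown without overlap, those called in all 3 knockdowns, the 3 smallest p of each slope difference, the 5 largest early and late differences, the 10 highest RPKM, 3 genes each side of the threshold, and a list of well-known transporters. SLC25A29, SLC2A14, SLC6A11, SLC22A7 in siIGF2BP2 and SLC35D1 were named after their values were seen. One listed gene is not reported here.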

Additional observations from a re-analysis of the deposited data

Results flagged for a closer look

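In 6 comparisons a member moved in opposite directions against siControl in a pair of knockdowns at 0 h, and the difference between those knockdowns passed edgeR's quasi-likelihood test. Over all genes, 18.7% differed between siIGF2BP1 and siIGF2BP2, 14.3% between siIGF2BP1 and siIGF2BP3, and 9.19% between siIGF2BP2 and siIGF2BP3. The share of all genes that also moved in opposite directions is not given here, so these comparisons describe the members only. SLC22A7 changed by 0.65 in siIGF2BP1 and -0.31 in siIGF2BP2 on the log2 scale, a difference of 0.96 ± 0.07 (adjusted p = 7.23e-13), and by 0.40 in siIGF2BP3, a difference between siIGF2BP2 and siIGF2BP3 of -0.705 (adjusted p = 4.91e-09). At 3 h and 6 h averaged its changes were 0.48, -0.53 and 0.16. The change in siIGF2BP2 at 0 h was lost on the ERCC scale (-0.23) and without siControl 0h replicate 1 or siIGF2BP2 0h replicate 1 (weakest -0.26, adjusted p = 0.102).

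SLC6A11 was higher in siIGF2BP1 (0.21) and lower in siIGF2BP2 (-0.23) and siIGF2BP3 (-0.20), with differences of 0.44 ± 0.05 (adjusted p = 1.23e-08) and 0.41 ± 0.05 (adjusted p = 1.33e-07). Its changes at 3 h and 6 h averaged were 0.19, -0.29 and -0.29. All 3 calls for SLC6A11 at 0 h were lost on the ERCC scale (adjusted p = 0.323, 0.321 and 0.515). They were also lost without siControl 0h replicate 2 or siIGF2BP1 0h replicate 1 (weakest 0.16, adjusted p = 0.115), without siControl 0h replicate 1 (-0.17, adjusted p = 0.0906), and without siControl 0h replicate 1 or siIGF2BP3 0h replicate 1 (weakest -0.14, adjusted p = 0.234), respectively. SLC35D1, a transporter of UDP-sugars, changed by 0.27 in siIGF2BP1 and -0.17 in siIGF2BP2, a difference of 0.44 ± 0.04 (adjusted p = 7.90e-10). SLC38A3, a glutamine transporter, changed by 0.24 in siIGF2BP1 and -0.13 in siIGF2BP3, a difference of 0.36 ± 0.04 (adjusted p = 4.89e-08). The call for SLC38A3 in siIGF2BP3 was lost without any 1 of 19 libraries (weakest -0.09, adjusted p = 0.394). Both calls for SLC38A3 were lost on the ERCC scale (0.21 and -0.05, with adjusted p = 0.191 and 0.842). Whether the calls for SLC35D1 hold on the ERCC scale or without single libraries is not given here. These comparisons share the siIGF2BP1, siIGF2BP2 or siControl libraries.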

How the results depend on the processing

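Alternatives to the counts of members called, the knockdown of each siRNA target and the median half-life were sorted, other than leaving out 1 library. Of these, 154 stayed the same and 10 moved, and every alternative for the siRNA targets stayed the same. For counts of calls, the same meant within 1.5 times, and for the median half-life within the replicate spread. This says nothing of direction, which other scalings turned: with TMM 95 members rose and 39 fell in siControl, and on the ERCC scale 93 were higher and 6 lower in siIGF2BP3 at 3 h and 6 h averaged. On the ERCC scale 20, 23 and 9 members were called before the drug in siIGF2BP1, siIGF2BP2 and siIGF2BP3 in turn, 21 between siIGF2BP1 and siIGF2BP3, and 10 between siIGF2BP2 and siIGF2BP3. TMM scaling with the change from 0 h to 6 h alone, chosen after seeing the data, called 1 slope difference in siIGF2BP1 and 1 in siIGF2BP2. Early against late loss gave 86 calls with TMM and 73 with library size, and the median half-life in siControl became 14.8 h with TMM, over members with a fall only. The cause was not tested. From 3 h to 6 h alone the slopes of SLC22A31 (-0.21 in siControl, -0.10 in the knockdown mean) and SLC38A5 (-0.010 in the knockdown mean) turned.

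Without 1 library, counts ranged from 32 to 50, 26 to 50 and 11 to 30 at 0 h, 71 to 86, 71 to 84 and 59 to 73 at 3 h and 6 h averaged, and 35 to 61, 27 to 51 and 17 to 40 between knockdowns. They ranged from 137 to 166 for loss in siControl, 155 to 161 in the knockdown mean, 0 to 0, 0 to 0 and 0 to 2 for slope differences, and 27 to 39 for early against late loss. Deviations of same-numbered libraries correlated by 0.1781 to 0.2077 in all 3 pairs of time points in siIGF2BP3, by -0.0417 to 0.0431 in the other conditions and by -0.0635 to 0.1589 at 1 time. The study split each transfected plate over the time points, but the labels do not tie replicate numbers to plates, so a shared plate remains possible, in siIGF2BP3 above all, and no block was used for the reported values. For levels, 1 replicate term common to all conditions gave 49, 48 and 27 calls at 0 h, 86, 83 and 74 later, and 54, 51 and 39 between knockdowns. Such a term cannot take up a plate shared within 1 condition, so these counts do not bear on that. A replicate block within each condition gave 159 and 158 for loss, 0 for slope differences and 40 for early against late loss. With 2 libraries per group, small changes of members near 5 CPM are the least certain.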
